A study of Mus musculus with 9 samples.

Results

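Integrins and selectins are the adhesion receptors with which leukocytes hold on to vessel walls, matrix and opsonised material. This account follows 9 of the 18571 genes in the deposited table, taken by symbol: the integrin subunits Itgal, Itgam, Itgb2, Itga4, Itga6, Itgb1 and Itgb5, the P-selectin gene Selp, and Selplg, which encodes its ligand PSGL-1. All 9 were found and all 9 passed the filter on low counts. Their levels were measured by poly-A RNA sequencing of CD45-immunopanned microglia from cortex and hippocampus of mice aged 9 months, with 3 libraries for each of 3 genotypes. The genotypes were wild type (WT), APP/PS1, an amyloid transgenic model of Alzheimer's disease, and APP/PS1:Cx3cr1-CreER:Cx43-flox/flox, called Cx43 cKO here, in which tamoxifen-activated Cre is meant to delete connexin 43 in microglia. All were on a C57BL6/j background, and the protocol given with every library describes tamoxifen by gavage at 0.1 mg/g on 5 consecutive days from the age of 8 months. Cre is driven here by Cx3cr1, which monocytes and border macrophages also express. Neither control genotype carries Cx3cr1-CreER or the floxed alleles by its label, so loss of Cx43 and presence of these alleles cannot be told apart. The labels do not say how many animals stand behind a library.

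An integrin is a pair of one alpha and one beta subunit. Itgal pairs with Itgb2 to form LFA-1, a receptor for ICAM-1, and Itgam pairs with Itgb2 to form Mac-1, or complement receptor CR3, which binds opsonised particles, fibrinogen and ICAM-1. Itga4 and Itgb1 form VLA-4, the receptor for VCAM-1 and fibronectin, Itga6 and Itgb1 form a laminin receptor, and Itgb5 pairs with Itgav as a vitronectin receptor. P-selectin is stored in platelets and endothelial cells and catches leukocytes that carry PSGL-1. Microglia are known for high Itgam, Itgb5 and Selplg, whereas Itgal and Itga4 are better known from blood leukocytes.

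The 9 genes lie on 7 chromosomes of the mouse assembly GRCm38.p6, with positions from RefSeq. Itgal (chr7:127296139-127335137) and Itgam (chr7:128062640-128118491) share a chromosome, and Itgam is followed by the other myeloid alpha subunits Itgax (chr7:128129526-128150657) and Itgad (chr7:128173933-128205504). Itga6 (chr2:71786886-71858427) and Itga4 (chr2:79255426-79333114) also share a chromosome. Selp (chr1:164115264-164150026) shares a chromosome with its paralog Sele (chr1:164039614-164058487). Itgb2 is at chr10:77530329-77565708, Itgb1 at chr8:128685654-128733579, Itgb5 at chr16:33829665-33949338 and Selplg at chr5:113817798-113832528. RefSeq promoter windows matched 5 of the 9 members, namely Itgam, Itga4, Itgb1, Itgb5 and Selp. Ranked by the size of their largest log2 change in any comparison, Itgam, Itga4 and Selp stood first among these 5. They are set beside Itgb1, which ranked last, though its change was not the smallest in every comparison. Each line gives the 250 bases before the gene start on the plus strand, 5′ to 3′, all upstream of the annotated exons. Capitals mark GAGGAA, the core of a PU.1-type site, and GGGCGG, a GC box, with the reverse complement of each capitalised as well; the motifs do not overlap.
Itgam: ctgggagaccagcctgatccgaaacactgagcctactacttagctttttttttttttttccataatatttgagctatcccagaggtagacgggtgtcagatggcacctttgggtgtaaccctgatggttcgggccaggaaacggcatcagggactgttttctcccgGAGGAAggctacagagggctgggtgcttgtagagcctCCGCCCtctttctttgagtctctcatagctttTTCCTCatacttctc
Itga4: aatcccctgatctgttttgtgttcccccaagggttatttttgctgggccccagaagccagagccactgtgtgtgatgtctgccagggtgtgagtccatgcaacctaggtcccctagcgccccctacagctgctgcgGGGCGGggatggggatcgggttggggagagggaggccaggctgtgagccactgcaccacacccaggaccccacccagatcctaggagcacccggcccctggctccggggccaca
Selp: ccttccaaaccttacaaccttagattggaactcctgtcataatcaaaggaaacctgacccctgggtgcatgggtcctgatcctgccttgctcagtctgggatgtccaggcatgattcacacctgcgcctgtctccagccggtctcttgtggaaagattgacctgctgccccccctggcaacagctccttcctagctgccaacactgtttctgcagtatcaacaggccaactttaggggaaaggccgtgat
Itgb1: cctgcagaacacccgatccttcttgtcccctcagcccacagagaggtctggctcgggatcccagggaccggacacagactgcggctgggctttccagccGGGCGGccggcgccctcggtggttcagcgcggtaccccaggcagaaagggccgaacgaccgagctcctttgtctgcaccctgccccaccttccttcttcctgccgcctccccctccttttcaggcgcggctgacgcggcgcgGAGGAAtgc

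The Itgam window (chr7:128062390-128062639) held 2 matches to GAGGAA and 1 to GGGCGG. In the Itga4 window (chr2:79255176-79255425) there was 1 GGGCGG and no GAGGAA. The Itgb1 window (chr8:128685404-128685653) held 1 of each, and the Selp window (chr1:164115014-164115263) had neither. The Itgb5 window, which is not printed, held 3 matches to GGGCGG and none to GAGGAA. Among 32851 RefSeq promoter windows of the same length, 23.3% held GAGGAA and 32.7% held GGGCGG on either strand. The letters TATAAA, searched as the box of that name, were in none of the 5 member windows and in 12.4% of all windows.

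The 9 libraries held 18907681 to 19565354 estimated counts. Microglial markers were high throughout but differed by genotype: 12 listed genes summed to 20810 to 21130 CPM, counts scaled to library size with TMM factors, in WT, 25870 to 26190 CPM in the APP/PS1 group and 22400 to 22610 CPM in the Cx43 cKO group. Of these, 7 were called higher and 3 lower in APP/PS1 against WT and 2 higher and 7 lower in Cx43 cKO against APP/PS1, and the part of this shift in the results was not tested. Ptprc, which encodes CD45, was at 491.7 to 517.5 CPM in WT and 483.8 to 509 CPM in the APP/PS1 group. In the Cx43 cKO group it was higher, at 608.2 to 637.1 CPM, without overlap with the others. Gja1, which encodes Cx43, was at 31.63 to 35.07 CPM in WT, 37.03 to 42.46 CPM in the APP/PS1 group and 25.31 to 28.09 CPM in the Cx43 cKO group, so its mRNA was lower but present. Astrocytes also express Gja1 strongly: the 10 astrocyte markers summed to 484.5 to 490.5, 692.3 to 712.8 and 533.6 to 542.7 CPM, with 9 of 10 called lower in Cx43 cKO against APP/PS1 (median log2 change -0.48), and their part in the Gja1 values was not tested. Cx3cr1 was at 2223 to 2288 CPM in WT and APP/PS1 and 1186 to 1231 CPM in Cx43 cKO. The Y-linked gene Ddx3y had 0 to 2 counts in the Cx43 cKO libraries and 4137 or more in each of the others, so sex and the Cx43 cKO genotype cannot be told apart. WT replicate 3 stood apart in a small set of genes: 26 of 12262 genes were at least 1.5-fold above both other WT libraries there, against 4 to 10 genes in any other library. Selp was among the 26, together with fibroblast and matrix genes such as Col1a1, Col3a1 and Dcn. Col1a1 stood above in the same way in replicate 3 of APP/PS1 and of Cx43 cKO too, and Selp was highest in replicate 3 of each genotype, by little in APP/PS1 (0.862 against 0.861 CPM). Nothing in the labels says that the libraries of a genotype came from separate animals, so the p-values measure the spread between these libraries, which may be technical.

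Per unit of length, the order of the 9 genes was the same in all 3 genotypes. In WT, Selplg stood first with 2061 TPM, an abundance scaled by transcript length, ± 36.9 (SD, n = 3), rank 58 of all genes, before Itgb5 with 1017 TPM ± 27.2 and Itgam with 836.5 TPM ± 16.2. Itgb2 (348.2 TPM ± 8.14), Itgb1 (222.2 TPM ± 8.18) and Itga6 (98.06 TPM ± 0.933) formed the middle. Itgal (17.49 TPM ± 0.284), Itga4 (10.73 TPM ± 0.391) and Selp (3.787 TPM ± 1.87) came last. Neighbours in this order did not overlap between libraries of any genotype. In WT the set therefore spans from a gene among the most abundant to Selp at rank 11032 of 18571 genes.

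**Figure D1:**
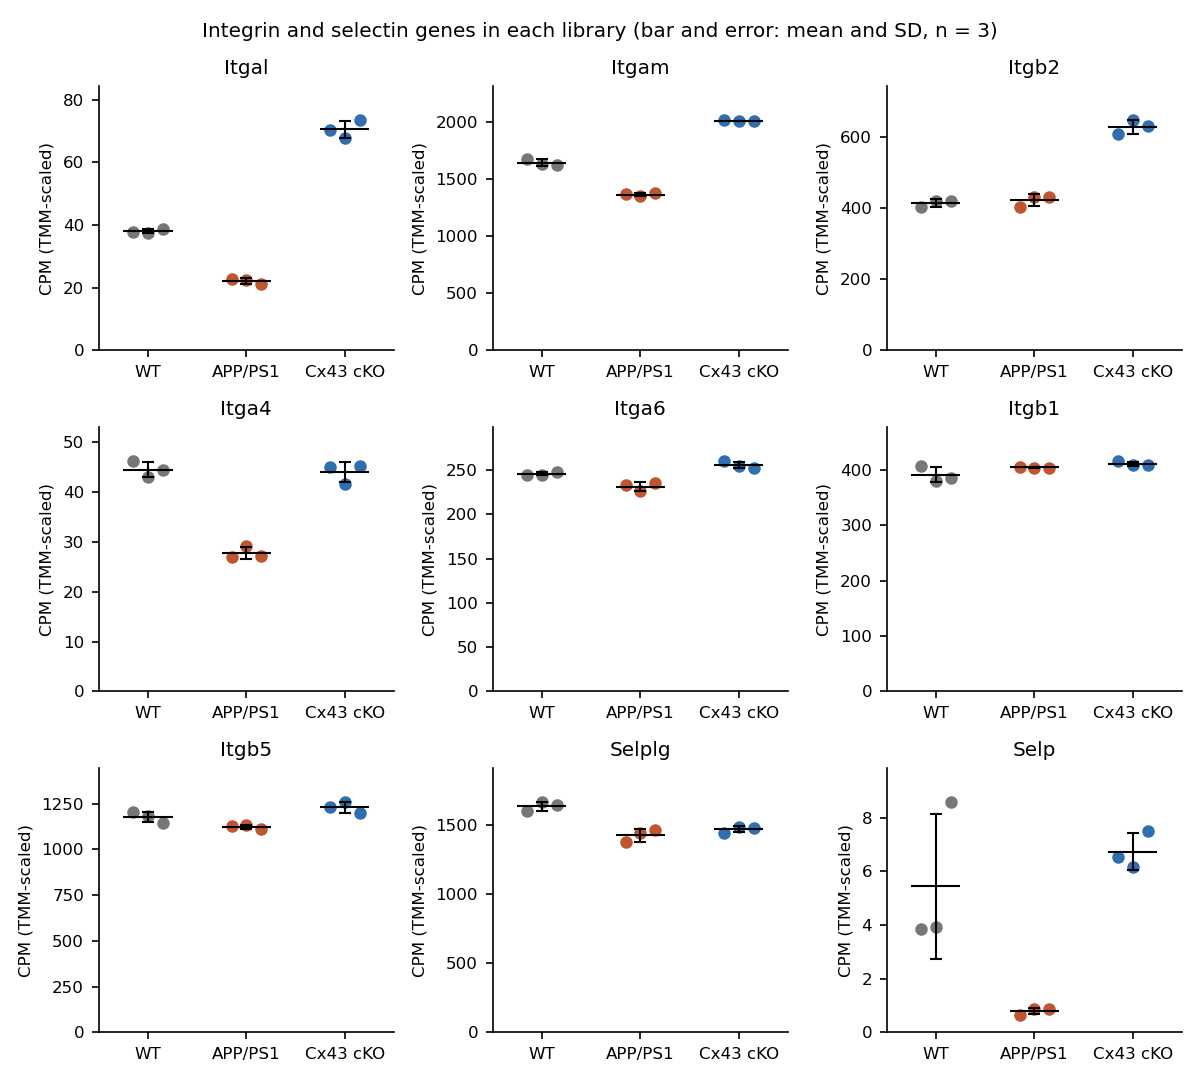
TMM-scaled CPM of each of the 9 genes (vertical axes, from 0) in the 3 libraries of each genotype; points are libraries, bars and error bars are the mean and SD. Itgal, Itga4 and Selp are lowest in the APP/PS1 libraries, Itgb2 is highest in the Cx43 cKO libraries, and 1 WT library of Selp, replicate 3, lies at 8.57 CPM above the other WT libraries.

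To ask how the amyloid genotype bears on these genes, APP/PS1 was compared with WT. Of the 9 genes, 7 were lower in APP/PS1 and none was higher at an edgeR adjusted p under 0.05. This has to be read against a broad background, because 59.0% of the 14696 genes tested were called in this comparison, 26.9% as higher and 32.0% as lower. The median log2 change of the 9 genes was -0.20, and that of all tested genes was -0.04. The libraries of the groups did not overlap for 7 of the 9 genes and for 63.5% of all tested genes. How these calls split into higher and lower depends on the scaling: with library totals in place of TMM, 9 of the 9 genes were called lower, and with DESeq2 size factors 5 were lower and 1 was higher. Over all called genes, the share that was higher was 45.7% with TMM, 29.5% with library totals, 30.6% on FPKM and 14.9% on TPM.

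To ask what the Cx43 cKO genotype adds to the amyloid model, it was compared with APP/PS1. Here 7 of the 9 genes were higher and none was lower, where 55.0% of tested genes were called, 27.3% as higher and 27.7% as lower. The median log2 change was 0.56 over the 9 genes and -0.01 over all tested genes. The groups did not overlap for 8 of the 9 genes and for 59.7% of all tested genes. With library totals 8 of the 9 genes were called higher, and on TPM all 9. Over all called genes, 49.6% were higher with TMM and 75.3% on TPM. This comparison shares its APP/PS1 libraries with the one before, so the directions of the changes in both are not independent.

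Cx43 cKO was then set against WT, which shares libraries with both comparisons above. Of the 9 genes, 4 were higher and 1 was lower, with 47.7% of tested genes called, 24.7% as higher and 23.0% as lower. The median log2 change was 0.07 over the 9 genes and -0.01 over all. The groups did not overlap for 6 of the 9 genes and for 54.6% of all tested genes. On TPM the split among the 9 genes turned to 3 higher and 5 lower, with library totals it was 3 higher and 2 lower, and with DESeq2 size factors 6 higher and 1 lower. Over all called genes, the higher share was 51.9% with TMM, 30.4% with library totals, 32.2% on FPKM, 20.2% on TPM and 60.4% in the DESeq2 Wald test.

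**Figure D2:**
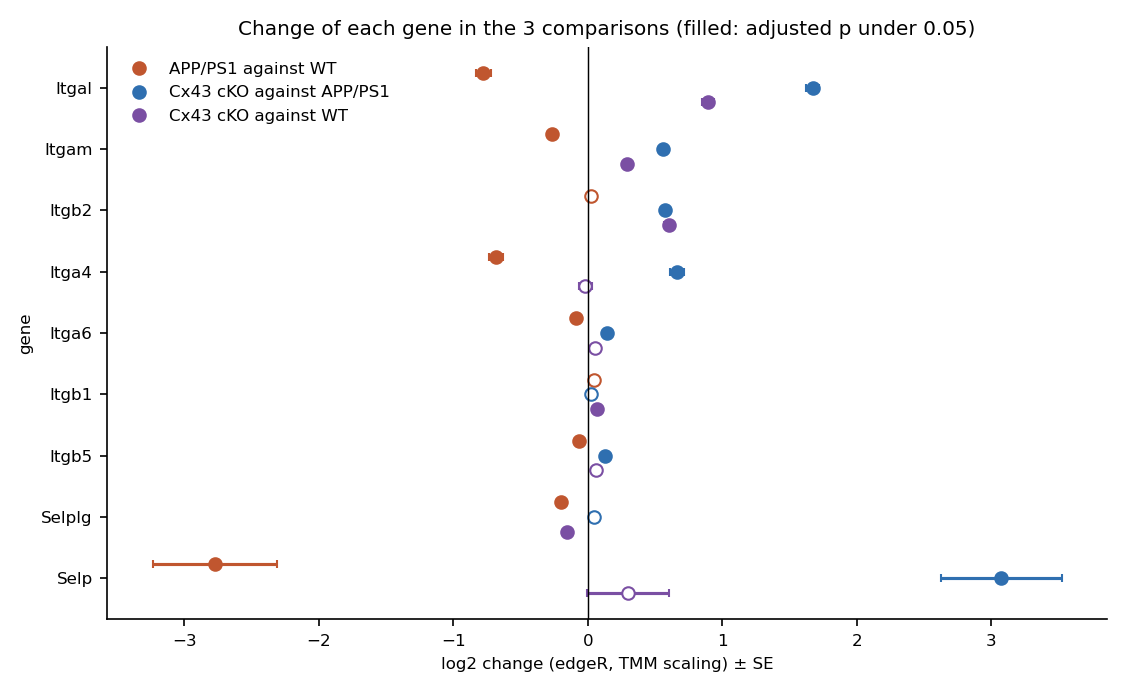
Log2 change with its SE (horizontal axis) of each gene in the 3 comparisons, which share libraries; filled points passed an adjusted p of 0.05 in the edgeR fit and open points did not. Selp has the widest range and the widest error bars, and the Itgb1 points all lie within 0.071 of 0.

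Selectins and blood-type integrins are also made by other cells that a CD45 panning could hold, so marker lists were summed in the same libraries. In these bulk samples, fewer cells of a type and less RNA per cell cannot be told apart. The 18 neutrophil and monocyte markers summed to 4077 to 4151 CPM in WT, 1522 to 1595 CPM in the APP/PS1 group and 10120 to 10220 CPM in the Cx43 cKO group. All 18 of 18 were called lower in APP/PS1 than in WT, all 18 were called above APP/PS1 in Cx43 cKO, and against WT 14 were higher and 3 lower in Cx43 cKO. This sum was ordered between the genotypes as 5 of the 9 members were by mean CPM, namely Itgal, Itgam, Itga6, Itgb5 and Selp, and its part in their differences was not tested.

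Itgal, the LFA-1 alpha subunit, differed between all 3 genotypes. Its levels were 37.84, 37.44 and 38.79 CPM in the WT libraries, 22.83, 22.55 and 21.12 CPM in the APP/PS1 group and 70.41, 67.94 and 73.37 CPM in the Cx43 cKO group. No libraries overlapped between genotypes. The level in APP/PS1 was 0.583-fold that of WT (log2 change -0.78 ± 0.055 SE, edgeR adjusted p = 2.03e-12) and that of Cx43 cKO was 3.18-fold that of APP/PS1 (log2 change 1.67 ± 0.051, adjusted p = 3.21e-20). Cx43 cKO was also 1.86-fold above WT (log2 change 0.89 ± 0.046, adjusted p = 4.7e-15). These 3 calls held under every alternative tried.

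Itgam, the Mac-1 alpha subunit and the source of the CD11b marker, moved less. The WT libraries had 1678, 1634 and 1622 CPM, the APP/PS1 libraries 1369, 1351 and 1378 CPM, and the Cx43 cKO libraries 2015, 2011 and 2010 CPM. Again the 3 genotypes did not overlap. APP/PS1 was at 0.831-fold the WT level (log2 change -0.27 ± 0.025, edgeR adjusted p = 5.8e-10), and Cx43 cKO was 1.47-fold above APP/PS1 (log2 change 0.56 ± 0.025, adjusted p = 1.54e-16) and 1.22-fold above WT (log2 change 0.29 ± 0.025, adjusted p = 1.89e-10). These calls, too, held under every alternative tried.

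Itgb2 encodes the beta subunit that both of these alpha subunits share. It had 402.3, 420.4 and 420.4 CPM in WT, 402.5, 432.4 and 431.7 CPM in the APP/PS1 group and 607.9, 646.8 and 630.6 CPM in the Cx43 cKO group. WT and APP/PS1 overlapped, and Cx43 cKO lay above both. The log2 change was 0.03 ± 0.032 in APP/PS1 against WT (edgeR adjusted p = 0.497), a direction that was called as higher with GC and length offsets (0.07, adjusted p = 0.0299) and turned to a lower call with library totals (-0.11, adjusted p = 0.00348), FPKM (-0.11, limma adjusted p = 0.0272) and TPM (-0.36, adjusted p = 7.14e-06). Cx43 cKO was 1.49-fold above APP/PS1 (log2 change 0.57 ± 0.032, adjusted p = 2.43e-14) and 1.52-fold above WT (log2 change 0.60 ± 0.032, adjusted p = 1.29e-14), and both calls held under every alternative tried.

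How the subunits stood to each other was followed as ratios of FPKM values within a library. There were 2.03, 2.08 and 2.16 Itgal per 100 Itgam in WT, 1.51, 1.49 and 1.37 in the APP/PS1 group and 3.15, 3.05 and 3.28 in the Cx43 cKO group, with no overlap. The ratio was 0.696-fold in APP/PS1 against WT, 2.17-fold in Cx43 cKO against APP/PS1 and 1.51-fold in Cx43 cKO against WT. Each of these had a two-sided exact permutation p of 0.1, the smallest that 3 libraries against 3 allow, and an adjusted p of 0.12 over 12 ratio comparisons. Itgal and Itgam together amounted to 245 per 100 Itgb2 ± 10.5 (SD, n = 3) in WT, 198 ± 8.88 in the APP/PS1 group and 199 ± 6.14 in the Cx43 cKO group. WT lay above both other genotypes in every library (exact permutation p = 0.1, adjusted 0.12), whereas APP/PS1 and Cx43 cKO overlapped (exact p = 0.8). Adding Itgax and Itgad, the other 2 alpha partners of Itgb2, a choice made after the data were seen, gave 253 ± 10.3 per 100 Itgb2 in WT, 260 ± 9.65 in the APP/PS1 group and 235 ± 6.32 in the Cx43 cKO group. WT and APP/PS1 then overlapped, and every Cx43 cKO library was below every APP/PS1 and WT library.

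**Figure D3:**
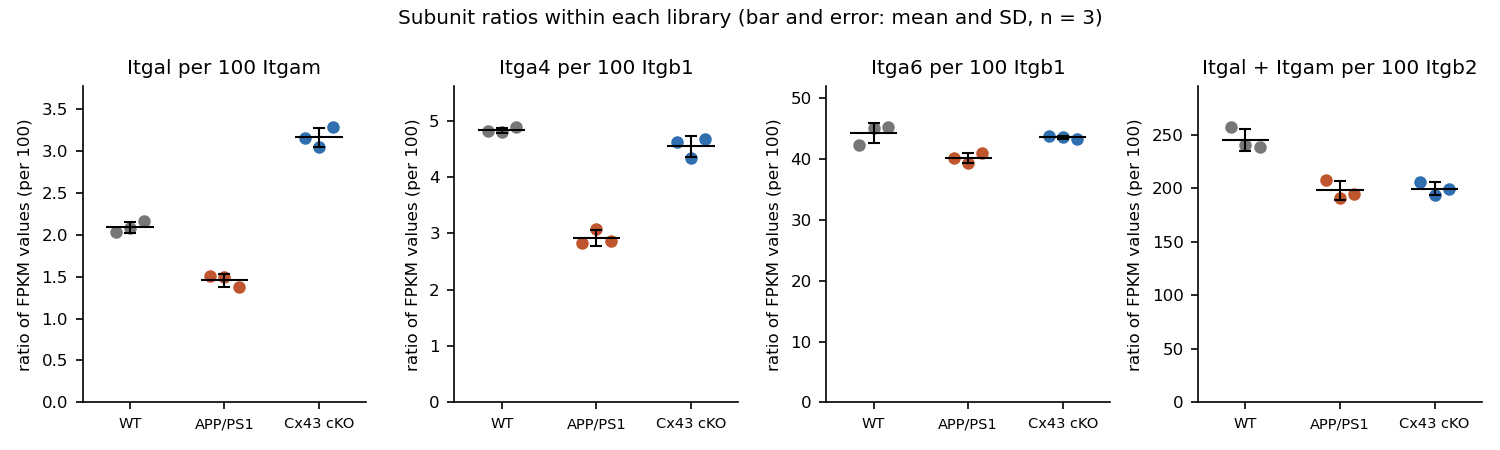
Ratios of FPKM values of subunits (per 100, vertical axes from 0) in each library; points are libraries, bars and error bars are the mean and SD. Itgal per 100 Itgam is at 2.09 in WT, 1.46 in the APP/PS1 group and 3.16 in the Cx43 cKO group on average, Itga4 per 100 Itgb1 is lowest in APP/PS1 at 2.91, and Itga6 per 100 Itgb1 spans the narrow range from 39.4 to 45.2.

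Itga4, the VLA-4 alpha subunit, was lowest in APP/PS1. It had 46.18, 43.11 and 44.42 CPM in WT, 26.98, 29.22 and 27.21 CPM in the APP/PS1 group and 45.14, 41.68 and 45.18 CPM in the Cx43 cKO group. The APP/PS1 libraries lay below all others, and the WT and Cx43 cKO libraries overlapped. APP/PS1 was at 0.624-fold the WT level (log2 change -0.68 ± 0.053, edgeR adjusted p = 1.91e-11), and Cx43 cKO was 1.58-fold above APP/PS1 (log2 change 0.66 ± 0.054, adjusted p = 4.97e-11), under every alternative tried. Cx43 cKO against WT gave a log2 change of -0.02 ± 0.049 (adjusted p = 0.787), whose sign turned with DESeq2 size factors (0.006) and in other settings. With library totals (-0.13, adjusted p = 0.0329) and on TPM (-0.20, adjusted p = 0.0148) it was called lower than WT.

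Itgb1, the beta partner of Itga4 and Itga6, varied least of the 9 genes. Its range was 380.4 to 406.5 CPM in WT, 403.5 to 405.7 CPM in the APP/PS1 group and 407.8 to 415 CPM in the Cx43 cKO group. WT and APP/PS1 overlapped, and Cx43 cKO lay above both by a narrow margin. The log2 change was 0.05 ± 0.029 in APP/PS1 against WT (edgeR adjusted p = 0.162) and 0.02 ± 0.029 in Cx43 cKO against APP/PS1 (adjusted p = 0.532). Without WT replicate 1 the first of these passed, at 0.08 (adjusted p = 0.0379), as it did with DESeq2 size factors (0.07, adjusted p = 0.0465). With library totals (-0.09, adjusted p = 0.0094), FPKM (-0.09, limma adjusted p = 0.0275) and TPM (-0.34, adjusted p = 3.13e-06) it was called lower instead. Cx43 cKO against WT passed at 0.07 ± 0.029 (adjusted p = 0.047). That call was lost when any single library other than WT replicate 1 was left out (0.05 to 0.08, adjusted p from 0.0562 to 0.216), and the direction turned with library totals (-0.04), FPKM (-0.04) and TPM (-0.13), where it was called lower (limma adjusted p = 0.00551). The ratio of Itga4 to Itgb1 was 4.83 ± 0.0403 per 100 in WT, 2.91 ± 0.133 in the APP/PS1 group and 4.54 ± 0.182 in the Cx43 cKO group, without overlap between the genotypes (exact permutation p = 0.1 and adjusted p = 0.12 in each comparison).

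Itga6, the laminin-receptor subunit, had 244.8 to 247.7 CPM in WT, 226 to 235.3 CPM in the APP/PS1 group and 252.3 to 259.6 CPM in the Cx43 cKO group. The ranges did not overlap, but the differences were small. APP/PS1 was at 0.941-fold the WT level (log2 change -0.09 ± 0.03, edgeR adjusted p = 0.0125), a call that was lost in 7 of 23 alternatives, among them leaving out APP/PS1 replicate 2 (-0.07, adjusted p = 0.0694), DESeq2 size factors (-0.07, adjusted p = 0.051) and GC and length offsets (-0.04, adjusted p = 0.156). Cx43 cKO was 1.11-fold above APP/PS1 (log2 change 0.14 ± 0.03, adjusted p = 0.000172) under every alternative tried. Cx43 cKO against WT was not called (0.06 ± 0.029, adjusted p = 0.119), passed as higher with DESeq2 size factors (0.08, adjusted p = 0.0243), and turned with library totals, FPKM and TPM (-0.05, -0.05 and -0.14), with a lower call on TPM (limma adjusted p = 0.00212). Per 100 Itgb1 there were 44.2 ± 1.65 Itga6 in WT, 40.2 ± 0.813 in the APP/PS1 group and 43.6 ± 0.261 in the Cx43 cKO group. WT and Cx43 cKO overlapped in this ratio (exact permutation p = 0.6), and the APP/PS1 libraries lay below both (exact p = 0.1, adjusted 0.12).

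Itgb5, the vitronectin-receptor beta subunit and the most abundant integrin subunit per length, had 1146 to 1203 CPM in WT, 1113 to 1134 CPM in the APP/PS1 group and 1199 to 1257 CPM in the Cx43 cKO group. WT and Cx43 cKO overlapped and APP/PS1 lay below both. APP/PS1 was at 0.955-fold the WT level (log2 change -0.07 ± 0.027, edgeR adjusted p = 0.0387). This call was lost when WT replicate 1 or 2 or any APP/PS1 library was left out (-0.07 to -0.05, adjusted p from 0.0504 to 0.161), and GC and length offsets turned its direction (0.06). Cx43 cKO was 1.09-fold above APP/PS1 (log2 change 0.13 ± 0.027, adjusted p = 0.000234), but with GC and length offsets the change was 0.02 (adjusted p = 0.627). Cx43 cKO against WT was not called (0.06 ± 0.027, adjusted p = 0.059). It passed without WT replicate 1 (0.08, adjusted p = 0.0394), without Cx43 cKO replicate 3 (0.08, adjusted p = 0.0348) and with the replicate block, in 8 of 23 alternatives in all. The direction turned with library totals (-0.04) and on TPM, where it was called lower (-0.12, limma adjusted p = 0.00614).

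Selplg, which encodes PSGL-1, was the most abundant of the 9 genes per length. It had 1602, 1664 and 1643 CPM in WT, 1375, 1445 and 1463 CPM in the APP/PS1 group and 1445, 1490 and 1477 CPM in the Cx43 cKO group. Every WT library was above every library of the other genotypes, which overlapped with each other. APP/PS1 was at 0.872-fold the WT level (log2 change -0.20 ± 0.028, edgeR adjusted p = 8.18e-07) and Cx43 cKO at 0.899-fold (log2 change -0.15 ± 0.028, adjusted p = 4.19e-05), under every alternative tried. Between Cx43 cKO and APP/PS1 the log2 change was 0.04 ± 0.028 (adjusted p = 0.194). It was called as higher with library totals (0.07, adjusted p = 0.0238), with GC and length offsets (0.06, adjusted p = 0.0274) and with limma on TPM values (0.23, adjusted p = 5.47e-05).

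Selp, the P-selectin gene, had the fewest counts, with 77, 80 and 175 in the WT libraries, 12, 16 and 16 in the APP/PS1 group and 123, 118 and 144 in the Cx43 cKO group. In CPM these were 3.84, 3.94 and 8.57, then 0.656, 0.861 and 0.862, then 6.52, 6.17 and 7.5. The APP/PS1 libraries lay below all others, and WT overlapped with Cx43 cKO only through WT replicate 3. APP/PS1 was at 0.146-fold the WT level (log2 change -2.77 ± 0.461, edgeR adjusted p = 0.00129), and without WT replicate 3 the log2 change was -2.29 (adjusted p = 2.38e-09). Cx43 cKO was 8.42-fold above APP/PS1 (log2 change 3.07 ± 0.448, adjusted p = 0.000692). Cx43 cKO against WT gave 0.30 ± 0.305 (adjusted p = 0.465), but without WT replicate 3 it was called as higher, at 0.79 (adjusted p = 6.59e-05). By size of change, Selp ranked 139 of 14696 tested genes in APP/PS1 against WT and 137 in Cx43 cKO against APP/PS1.

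The 2 cell types best known to store P-selectin are platelets and endothelial cells. Neither is known for CD45, but markers of both were present in these libraries. The 10 platelet markers summed to 60.35 to 63.36 CPM in WT, 62.4 to 65.44 CPM in the APP/PS1 group and 32.64 to 34.55 CPM in the Cx43 cKO group, with 8 of 10 called below the APP/PS1 level in Cx43 cKO and 0 above it. In APP/PS1 against WT, 4 platelet markers were called lower, as Selp was, and 2 higher (median log2 change -0.26), with Ppbp at -0.64 and Pf4 at 0.59 (25.79 CPM on average in APP/PS1, 17.18 CPM in WT). The 12 endothelial markers summed to 602.5 to 614.2 CPM in WT, 584.5 to 597.1 CPM in the APP/PS1 group and 499.6 to 510.6 CPM in the Cx43 cKO group, with 9 called below the APP/PS1 level in Cx43 cKO and 1 above it. Against WT, 6 endothelial markers were called lower in APP/PS1, as Selp was, and 1 higher (median log2 change -0.125). From APP/PS1 to Cx43 cKO, Selp stood higher and both sums stood lower, and the source of the Selp mRNA was not tested. The 6 B cell markers summed to 30.41 to 32.86, 10.11 to 11.64 and 19.64 to 20.71 CPM in WT, APP/PS1 and Cx43 cKO, and the 10 T and NK cell markers to 40.54 to 44.83, 59.25 to 61 and 43.5 to 48.01 CPM. Border macrophage markers, 6 genes, summed to 522.1 to 531.9, 381.6 to 394.9 and 338.6 to 356.3 CPM. The 8 erythroid markers summed to 1194 to 1250, 247.8 to 275.1 and 96.19 to 106.8 CPM, with 8 of 8 called lower in APP/PS1 against WT. No marker of any list was at 0 in every library of a genotype, and the part of these cells in the results was not tested.

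**Figure D4:**
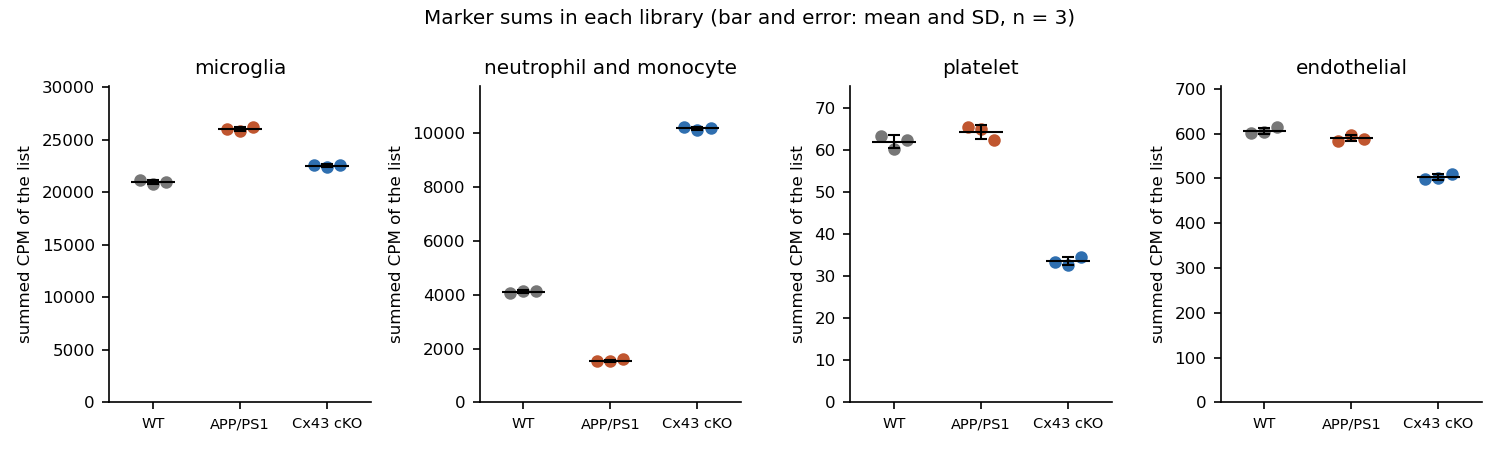
Summed TMM-scaled CPM of 4 marker lists (vertical axes from 0) in each library; points are libraries, bars and error bars are the mean and SD. The neutrophil and monocyte sum averages 4120 CPM in WT, 1556 CPM in the APP/PS1 group and 10180 CPM in the Cx43 cKO group, while the platelet and endothelial sums are lowest in Cx43 cKO.

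Among the other integrin subunits, 17 of 19 listed genes were tested. In APP/PS1 against WT 4 were higher and 7 lower (median log2 change -0.29), in Cx43 cKO against APP/PS1 3 were higher and 7 lower (median -0.22), and in Cx43 cKO against WT 3 were higher and 9 lower (median -0.16). The share of all tested genes called in these comparisons was 59.0%, 55.0% and 47.7%, and whether this list differs from other genes was not tested. On TPM these splits were 1 and 12, 4 and 2, and 3 and 11. Itgax, the CD11c subunit that marks amyloid-responsive microglia, had 42.67 ± 2.04 CPM in WT, 363.4 ± 16.5 CPM in the APP/PS1 group and 316.2 ± 11.8 CPM in the Cx43 cKO group (SD, n = 3). It rose by 3.09 ± 0.043 on the log2 scale from WT to APP/PS1 (edgeR adjusted p = 4.08e-27) and fell by 0.20 ± 0.036 in Cx43 cKO against APP/PS1 (adjusted p = 3.34e-05), but on TPM the latter difference was -0.015. Itgad, its neighbour on the chromosome, was at 1.084 to 1.223 CPM on average and was not called in any comparison. Itgb7, the partner of Itga4 in a gut-homing integrin, had 20.49 ± 0.933, 7.535 ± 1.07 and 19.27 ± 0.14 CPM in WT, APP/PS1 and Cx43 cKO, with log2 changes of -1.44 ± 0.083 in APP/PS1 against WT (adjusted p = 3.73e-14) and 1.35 ± 0.085 in Cx43 cKO against APP/PS1 (adjusted p = 2.58e-13). Itga2b, the platelet integrin subunit, had 14.75 ± 0.454, 6.979 ± 0.843 and 3.743 ± 0.164 CPM and was called lower in each comparison, down to a log2 change of -1.98 ± 0.102 in Cx43 cKO against WT (adjusted p = 5.27e-15). Itga5, the fibronectin-receptor subunit, was ordered the other way by mean CPM, with 179.6 ± 4.15, 238.9 ± 2.69 and 318.3 ± 11.4 CPM, and Itgb3 did so with 49.51 ± 1.76, 59.15 ± 1.14 and 79.24 ± 2.73 CPM. In APP/PS1 against WT on TPM, Itga5 stood at a log2 change of 0.019 in place of 0.41, and Itgb3 turned to -0.13. Itgav, the partner of Itgb5, was called only in Cx43 cKO against WT among the 3 comparisons (log2 change -0.15 ± 0.04, adjusted p = 0.00284).

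Expressed as shares of the TPM of 18 alpha subunits, Itgam made up 69.4% ± 0.734 in WT, 55.7% ± 0.496 in the APP/PS1 group and 63.5% ± 0.538 in the Cx43 cKO group (SD, n = 3). Itgax made up 2.13% ± 0.114, 17.6% ± 0.476 and 11.8% ± 0.314. Itga6 made up 8.14%, 7.4% and 6.31%, although its CPM in Cx43 cKO was the highest. Of the TPM of 8 beta subunits, Itgb5 held 62.3% ± 0.723, 61.3% ± 0.821 and 56.8% ± 0.631, and Itgb2 held 21.4% ± 0.765, 22.1% ± 0.819 and 27.9% ± 0.662. These shares sum to a whole, so a larger share of one subunit lowers the others.

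**Figure D5:**
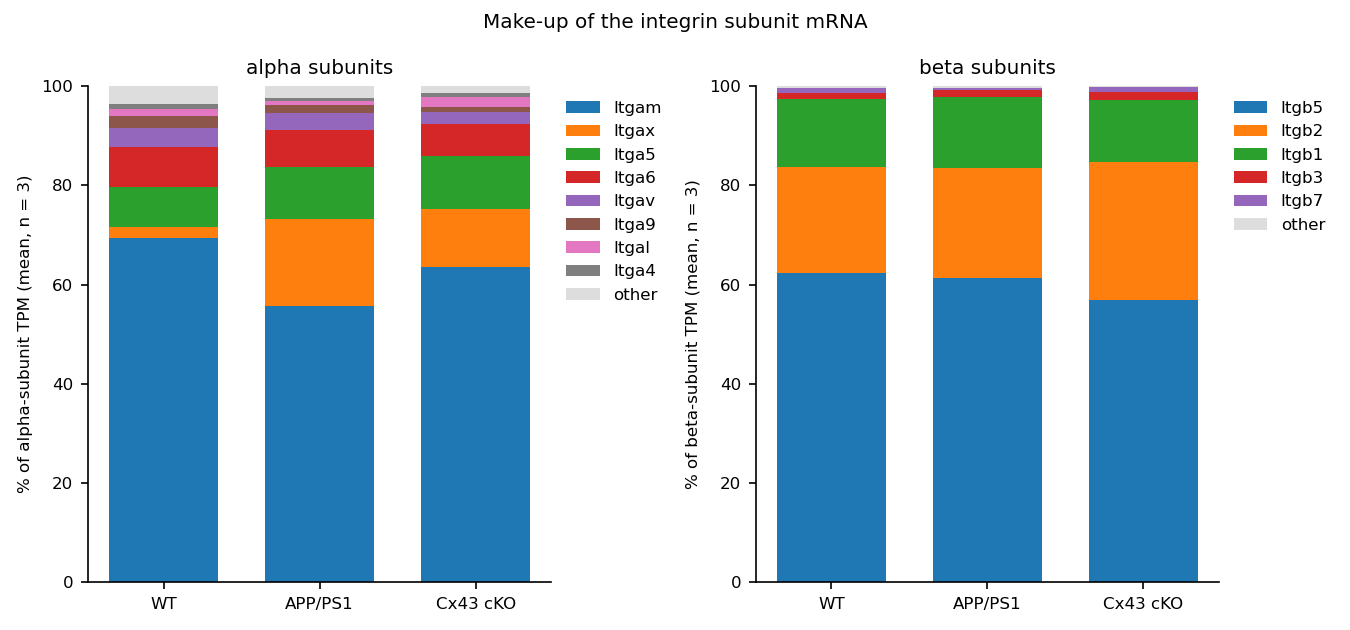
Mean share of each subunit (n = 3) in the summed TPM of the alpha subunits (left) and the beta subunits (right) for each genotype. Itgam is the largest alpha share in each genotype, between 55.7% and 69.4%, and Itgb5 the largest beta share, between 56.8% and 62.3%.

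Of the counter-receptors and ligands of these proteins, 27 were tested. In APP/PS1 against WT 3 were higher and 16 lower (median log2 change -0.42), where 26.9% and 32.0% of all tested genes were, in Cx43 cKO against APP/PS1 11 were higher and 7 lower (median 0.05; 27.3% and 27.7% of all), and in Cx43 cKO against WT 8 were higher and 11 lower (median -0.11; 24.7% and 23.0% of all). Whether this list differs from other genes was not tested. On TPM these splits became 1 and 23, 15 and 5, and 7 and 15. Sele, the E-selectin gene, had 5.612 ± 0.32, 2.365 ± 0.486 and 2.676 ± 0.143 CPM in WT, APP/PS1 and Cx43 cKO, was lower in APP/PS1 than in WT (log2 change -1.25 ± 0.148, edgeR adjusted p = 5.12e-08) and was not called between Cx43 cKO and APP/PS1 (0.18 ± 0.168, adjusted p = 0.387). Selp was called in both of these comparisons, and whether the changes of Selp and Sele differ was not tested. Cd44, a hyaluronan receptor that can carry selectin ligands, had 91.44 ± 3.06, 36.54 ± 0.898 and 193.4 ± 3.66 CPM, and Spn, the sialomucin CD43, had 20.39 ± 1.56, 6.816 ± 0.398 and 29.01 ± 1.66 CPM. Both were called in all 3 comparisons.

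Among integrin ligands, Spp1, which encodes osteopontin, had 20.95 ± 1.78 CPM in WT, 914.2 ± 29.1 CPM in the APP/PS1 group and 198.5 ± 4.12 CPM in the Cx43 cKO group. It rose by 5.45 ± 0.045 on the log2 scale in APP/PS1 against WT (edgeR adjusted p = 1.32e-32) and fell by 2.20 ± 0.035 in Cx43 cKO against APP/PS1 (adjusted p = 1.68e-26). C3, the precursor of the Mac-1 ligand iC3b, was ordered otherwise, with 65.08 ± 3.51, 25.8 ± 1.32 and 165.1 ± 3.99 CPM and calls in all 3 comparisons. Thbs1 had 422.2 ± 2.75, 93.34 ± 2.51 and 343.2 ± 4.85 CPM, and Fn1, the VLA-4 ligand fibronectin, had 228.6 ± 7.08, 128.8 ± 5.89 and 215.5 ± 3.03 CPM. Vcam1, the other VLA-4 ligand, was at 307.9 ± 9.23 CPM in WT and lower in both disease-model groups, at 191.6 ± 4.42 and 202.7 ± 1.32 CPM. Icam1, the ligand of LFA-1 and Mac-1, had 1579 ± 44.1, 1515 ± 50.1 and 1601 ± 45.8 CPM and was called only in Cx43 cKO against APP/PS1 among the comparisons (log2 change 0.08 ± 0.03, adjusted p = 0.0248). Icam2 was at 4.074 to 5.412 CPM on average.

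PSGL-1 binds P-selectin only after sugars and sulphate have been added to it. The list of genes for adding sugars and sulphate covers selectin ligands in general, not PSGL-1 alone. Of its 14 tested genes, 4 were higher and 6 lower in APP/PS1 against WT (median log2 change -0.18), 5 higher and 2 lower in Cx43 cKO against APP/PS1 (median 0.05), and 3 higher and 5 lower in Cx43 cKO against WT (median 0.01). All tested genes were called at 59.0%, 55.0% and 47.7% in these comparisons, and whether this list differs from other genes was not tested. The TPM values gave 2 and 10, 10 and 2, and 2 and 7. Gcnt1, which builds the core branch on O-glycans, had 123.4 ± 6.34, 136.7 ± 1.02 and 282.9 ± 5.01 CPM in WT, APP/PS1 and Cx43 cKO, with a log2 change of 1.05 ± 0.035 in Cx43 cKO against APP/PS1 (edgeR adjusted p = 2.08e-19). C1galt1c1, the chaperone of the enzyme one step earlier, was ordered otherwise, with 18.14 ± 1.57, 40.23 ± 1.94 and 23.05 ± 1.11 CPM. With GC and length offsets its log2 change was smaller, 0.42 in APP/PS1 against WT and -0.20 in Cx43 cKO against APP/PS1. Chst2, a sulphotransferase that acts on sugars and not on tyrosines, had 12.7 ± 1.08, 47.21 ± 1.97 and 45.67 ± 1.41 CPM. It rose by 1.89 ± 0.062 on the log2 scale in APP/PS1 against WT (adjusted p = 1.44e-19). Of the fucosyltransferases, Fut4 had 4.033 ± 0.458, 2.687 ± 0.247 and 4.318 ± 0.326 CPM and Fut7, which is best known for completing the ligand in leukocytes, only 0.6485 to 1.155 CPM on average. St3gal4, a sialyltransferase, had 26.43 ± 1.18, 17.91 ± 0.154 and 25.14 ± 0.901 CPM. Tpst2, which sulphates tyrosines, had 95.63 ± 3.36, 80.58 ± 1.05 and 83.25 ± 3.37 CPM and, like Selplg itself, was called lower than WT in both disease-model groups and was not called between them.

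Integrins are switched on from inside the cell by talin, kindlin and the Rap1 pathway, and signal through Src-family kinases and Syk. Of 32 tested genes of this machinery, 5 were higher and 21 lower in APP/PS1 against WT (median log2 change -0.16), 19 higher and 6 lower in Cx43 cKO against APP/PS1 (median 0.25), and 12 higher and 8 lower in Cx43 cKO against WT (median 0.005). Of all tested genes, 59.0%, 55.0% and 47.7% were called in these comparisons, with higher and lower calls at 26.9% and 32.0%, 27.3% and 27.7%, and 24.7% and 23.0%. These splits on TPM were 2 and 30, 25 and 1, and 7 and 18. Tln1, the talin gene, had 835.6 ± 23.5, 704 ± 13.6 and 839.8 ± 15.9 CPM in WT, APP/PS1 and Cx43 cKO, with log2 changes of -0.25 ± 0.028 in APP/PS1 against WT (edgeR adjusted p = 2.55e-08) and 0.25 ± 0.028 in Cx43 cKO against APP/PS1 (adjusted p = 1.86e-08). With GC and length offsets these Tln1 values were -0.03 and 0.10. Fermt3, the leukocyte kindlin, had 307.3 ± 6.4, 226.1 ± 11.2 and 276.8 ± 7.04 CPM and was called in all 3 comparisons. Syk had 276.4 ± 3.4, 193.8 ± 7.74 and 251.8 ± 2.98 CPM. Fgr, a Src-family kinase, was the member of this list that differed most in Cx43 cKO, with 29.12 ± 0.574, 16.12 ± 0.633 and 68.81 ± 3.27 CPM and a log2 change of 2.09 ± 0.055 against APP/PS1 (adjusted p = 1.1e-21). Parvg, a leukocyte adaptor of the integrin-linked kinase complex, had 210.9 ± 9, 192 ± 7.02 and 230.2 ± 6.67 CPM.

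The Rap1 genes themselves were ordered otherwise. Rap1a had 133.6 ± 6.96, 205.1 ± 11.3 and 139.4 ± 6.84 CPM in WT, APP/PS1 and Cx43 cKO, with a difference of 0.62 ± 0.045 (log2) in APP/PS1 against WT (edgeR adjusted p = 5.06e-10) and of -0.56 ± 0.045 in Cx43 cKO against APP/PS1 (adjusted p = 3e-09). With GC and length offsets these Rap1a values were 0.38 and -0.34. Rasgrp2, an activator of Rap1, was the member of the list with the lowest log2 change in APP/PS1 against WT (-0.90 ± 0.061, adjusted p = 9.1e-13). Rap1b was called higher in APP/PS1 against WT with TMM (0.10 ± 0.032, adjusted p = 0.00757), but with GC and length offsets it was -0.07; on TPM it was -0.29, where the median of all genes was -0.35. Apbb1ip, which links Rap1 to talin, had 222.2 ± 4.19, 224.7 ± 1.4 and 284.2 ± 7.06 CPM, and Skap2 had 98.2 ± 0.606, 120.7 ± 5.31 and 118.9 ± 2.82 CPM.

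For each of the 9 genes, the most alike profiles were sought among 9163 genes with a mean of at least 10 CPM, as the smallest Euclidean distance between log2 CPM values centred on each gene's mean over the 9 libraries. Nearest to Itgal were Ckap4 (distance 0.147), Capn1 (0.229) and Prc1 (0.237). Itgam had Csf2rb2 (0.0794), Atp11b (0.0827) and Dck (0.0862) nearest, and Itgb2 had Gpi1 (0.109), Abhd5 (0.112) and Klhdc4 (0.119). For Itga4 these were Gucd1 (0.17), Slc16a1 (0.196) and Arid3a (0.201). Selp, with a mean below 10 CPM, was not in this pool and could not be found as a neighbour. None of the other members was among the 3 nearest to any of the 9 genes. Near to Selp were Gda (0.951) and Atp8b4 (0.985), at much larger distances. Nearest to Selplg were Ccnk (0.0496), Btg2 (0.0593) and Kremen1 (0.0725). The genes that varied little had near neighbours of the same kind, at distances of 0.0511 to 0.0796 for Itga6 (Ubxn4, Heca and Dennd4a), Itgb1 (Pde3b, Arf1 and Gpt2) and Itgb5 (Nop53, Ipo5 and Txnl4a).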

How the data were processed

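Per the labels' protocols, poly-A RNA of 9 libraries was read single-end on a DNBSEQ machine. The submitters' processing notes name GRCm38.p6, HISAT, Bowtie2 and DESeq2 without version or role. Per the file headers, the deposited table holds estimated counts, FPKM, TPM and normalised counts per library. The estimated counts are deposited with decimals and were rounded here, where plain counts had been assumed. The deposited FPKM values are per length and library size, the deposited TPM columns have equal sums, and the deposited normalised counts are a scaled signal that was not used here.

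All libraries entered a single edgeR 4.0.16 quasi-likelihood fit (R 4.3.3; TMM scaling, filterByExpr by group, robust), with Benjamini-Hochberg adjustment over all 14696 tested genes and a threshold of 0.05. Exact two-sided permutation tests were used for the ratios of FPKM values. Alternatives were other scalings (library totals, DESeq2 1.42.0 size factors), the DESeq2 Wald test, limma-voom and limma-trend (limma 3.58.1) on FPKM (pseudocount 1 or 0.1) and TPM (pseudocount 1), other filters, a stricter adjusted p of 0.01, a fit to only the groups in question, offsets by 10 bins each of GC content and transcript length (GENCODE mouse, which gave a length to all 9 members), a replicate block, and leaving out each library. The ratio with all 4 alpha partners of Itgb2 was added after the data were seen. The edgeR fit was tested on simulated counts, in which far fewer genes changed than were called here.

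The members and lists were chosen with earlier results of these data known. Named genes are the 9 members, list genes chosen by role, the extreme called genes of each list with a mean of at least 1 CPM, the 3 nearest profiles of each member, and Gja1, Cx3cr1 and Ptprc. Some genes that this rule selects are not reported here. Ddx3y and the genes named for WT replicate 3 were chosen after their values were seen. Libraries of a group differed by more than counting noise (mean chi-square per gene of 1.8 to 3.54, against at least 71.2 between groups), so none was treated as a repeat deposit of another. This does not show separate animals, and the biological coefficient of variation that edgeR estimated was 3.14%. Total counts of 18907681 to 19565354 per library set the counting precision.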

Additional observations from a re-analysis of the deposited data

How the results depend on the processing

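Under 23 alternatives each, the calls of Itgal, Itgam, Itga4, Selp and Selplg in APP/PS1 against WT, of Itgal, Itgam, Itgb2, Itga4, Itga6 and Selp in Cx43 cKO against APP/PS1, and of Itgal, Itgam, Itgb2 and Selplg in Cx43 cKO against WT kept direction and side of the threshold. Leaving out 1 library gave 5 to 7, 7 to 7 and 4 to 6 called members in these comparisons; on TPM 8 were called in Cx43 cKO against WT, where 5 were in the edgeR fit.

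In APP/PS1 against WT, Itgb2 and Itgb1 turned to -0.111 and -0.089 with library totals, -0.105 and -0.088 on FPKM with a pseudocount of 1, -0.106 and -0.089 with 0.1, and -0.36 and -0.342 on TPM, and Itgb5 turned to 0.062 with GC and length offsets. In Cx43 cKO against WT, Itga6, Itgb1 and Itgb5 turned to -0.051, -0.037 and -0.045 with library totals, -0.053, -0.036 and -0.025 on FPKM with a pseudocount of 1, -0.054, -0.036 and -0.025 with 0.1, and -0.143, -0.126 and -0.115 on TPM. Itgb2 in APP/PS1 against WT was called higher with GC and length offsets (0.069), with and without the block. Library totals moved the median of all genes to -0.17 and -0.12 in these comparisons, and TPM to -0.35 and -0.17. Itga4, near 0 in Cx43 cKO against WT, turned to 0.006 with DESeq2 size factors and in the DESeq2 Wald test, 0.032 with GC and length offsets, and ranged from -0.042 to 0.02 when 1 library was left out, turning without WT replicate 1 (0.008) and without Cx43 cKO replicate 2 (0.02). The log2 ratio of Itgal plus Itgam to Itgb2 between Cx43 cKO and APP/PS1, at 0.01, ranged from -0.015 to 0.046 when 1 library was left out; with all 4 alpha partners it was -0.143, and 0.04 in APP/PS1 against WT. For scalings, totals or centring differ by construction; for the other settings the cause was not tested.

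The replicate numbers pair no libraries by the labels, and same-numbered libraries correlated at 0.063 to 0.299 over 9 pairs, so not every pair passed 0.1. In the data, every library correlated best with those of its own number. The biological coefficient of variation that edgeR estimated was 3.14% in the main fit and 0.988% with the replicate block, so much of the spread within genotypes went with the replicate number. With the replicate block, 9319, 8851 and 7934 genes and 8, 8 and 7 members were called, the added members being Itgb1 in APP/PS1 against WT (0.048, edgeR adjusted p = 0.0182), Selplg in Cx43 cKO against APP/PS1 (0.043, adjusted p = 0.0342), and Itga6 (0.056, adjusted p = 0.0165) and Itgb5 (0.063, adjusted p = 9.75e-06) in Cx43 cKO against WT; with the block and GC and length offsets, 8593, 8275 and 7757 genes and 7, 7 and 6 members, Itgb5 in APP/PS1 against WT turning to 0.063 and Itga4 in Cx43 cKO against WT to 0.032. Intervals and tests cover no variation between animals that the libraries do not hold.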
